A study of Homo sapiens with 2 samples.

Results

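The genes described here are the long intergenic noncoding RNA (LINC) genes that were expressed in PLC cells, a cell line from a human liver cancer. A gene was included if its name in the deposited tables was exactly LINC followed by digits, if it was listed in both libraries, and if its FPKM, summed over the loci of that name, averaged at least 0.5 over both. FPKM is the number of sequenced fragments scaled by transcript length and by library size. Of 861 LINC names in both tables, 102 met this rule, and they are 102 of the 11281 names of any kind that reached the same mean among 24991 in both tables. The genes were chosen by their mean FPKM over both libraries, so their levels are a description.

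RNA was sequenced from PLC cells infected with a lentivirus carrying an empty vector, called EV, and from cells infected with the same vector carrying human PRSS35, a secreted protease. Both populations were selected with puromycin, and the genotype of the EV cells is given as WT. There was 1 library per condition, so differences between them could not be checked against replicates and none was tested. The interval printed beside an FPKM is the 95% interval that Cufflinks put around it, which describes counting and assignment error in that library but not how cultures vary. For the 3 members with more than 1 locus, the bounds of the loci were summed, and the result is not a 95% interval. In bulk RNA, fewer cells with a transcript and less transcript per cell cannot be told apart.

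The PRSS35 transcript was measured at 0.643 FPKM in the EV library and at 1836 FPKM in the other, as its label implies. Of 12 hepatocyte and liver cancer markers, 11 were at or above 1 FPKM in both libraries. The 12 summed to 8733 FPKM in EV and 9915 FPKM in PRSS35 cells. Most of this was KRT8 (2456.5 and 2344 FPKM), KRT18 (2781 and 2315 FPKM) and SERPINA1 (2528 and 4239 FPKM). Low ones were ALB at 4.05 and 5.21 FPKM, TTR at 1.56 and 1.61 FPKM, and FGB, a fibrinogen chain, at 0.598 and 0.540 FPKM. The leukocyte marker PTPRC was at 0 in both and the 3 endothelial markers were at or below 0.0297 FPKM, while LYZ, also on the leukocyte list, was at 94.0 and 103.7 FPKM. The 3 bile duct cell markers summed to 16.2 and 17.3 FPKM, and the 2 fibroblast markers matched by name to 1.72 and 2.03 FPKM. The part of these marker levels in the LINC values was not tested.

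Long noncoding RNAs are transcribed and spliced like messenger RNAs, but most of them do not code for a protein. Some act in the cytoplasm by binding proteins or small RNAs, and others act in the nucleus, often on the gene beside them. The LINC symbols are placeholder names for transcripts between known genes, and several loci so named were later found to code for small proteins or received a functional name. Many of them are restricted to few cell types, and liver cancer cells are known to express their own set.

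Of the 102 genes, 24 have another symbol in RefSeq and 7 are listed there as protein coding. Models with the symbol or its present name were found in GENCODE for 97, of which 86 are typed as lncRNA. The canonical GENCODE transcript had 1 exon in 16 of these genes, 2 exons in 15, 3 in 22 and 4 or more in 44, and a median length of 1521 bases. Across these genes the log2 mean level and the log2 length of that GENCODE transcript had a Pearson r of -0.064, over genes measured in the same libraries. The GENCODE transcript can differ from what was measured. That of LINC01023 has 2616 bases, more than its measured locus (chr5:108063526-108063962). Promoter sequences, which run from 250 bases before to 50 bases after the annotated start, were matched in RefSeq (GRCh38.p14) for 72 of the genes. These held a median of 21 CG dinucleotides, against 14 over the 35116 promoters in the table. On either strand, 41 of the 72 (56.9%) held GGGCGG, against 45.0% of all promoters, and 34 (47.2%) held CCAAT, against 34.6%. The other motifs searched were TATAAA, in 7 (9.72%) against 11.5% of all promoters, and CACGTG, in 8 (11.1%) against 7.26%.

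The sequences that show best what is hidden under the LINC names are the short coding sequences of the members now known to code for small proteins. LINC00493 is SMIM26, which codes for a small mitochondrial membrane protein, and its coding sequence of 288 bases lies in 2 exons on the plus strand (GRCh37 chr20:18548123-18550049). LINC00116 is MTLN, which codes for mitoregulin, a protein of the inner mitochondrial membrane (171 bases, minus strand, chr2:110969932-110970102). LINC00998 is SMIM30, which codes for a small membrane protein (180 bases, minus strand, chr7:112757454-112757633). LINC01420 is NBDY, whose product binds the machinery that removes the cap of messenger RNAs (207 bases, plus strand, chrX:56755787-56755993). LINC00094 is BRD3OS, on the opposite strand of BRD3 (255 bases, plus strand, chr9:136891870-136892124). They code for 95, 56, 59, 68 and 84 residues, in this order. Capitals mark the start and stop codons in the coding sequences, which are from GENCODE on GRCh37, the assembly called hg19 by the authors.
LINC00493: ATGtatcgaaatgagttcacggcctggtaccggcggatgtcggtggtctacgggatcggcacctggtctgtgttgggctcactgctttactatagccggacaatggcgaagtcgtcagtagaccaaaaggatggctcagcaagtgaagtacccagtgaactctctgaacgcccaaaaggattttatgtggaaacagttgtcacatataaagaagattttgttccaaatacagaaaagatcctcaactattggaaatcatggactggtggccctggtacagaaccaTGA
LINC00116: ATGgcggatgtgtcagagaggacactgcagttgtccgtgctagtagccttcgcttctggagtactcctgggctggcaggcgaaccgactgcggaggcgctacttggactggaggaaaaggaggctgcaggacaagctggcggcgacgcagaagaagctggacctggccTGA
LINC00998: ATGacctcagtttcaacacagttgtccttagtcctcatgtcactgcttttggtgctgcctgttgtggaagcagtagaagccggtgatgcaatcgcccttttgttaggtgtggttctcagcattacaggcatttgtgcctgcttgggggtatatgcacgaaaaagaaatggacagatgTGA
LINC01420: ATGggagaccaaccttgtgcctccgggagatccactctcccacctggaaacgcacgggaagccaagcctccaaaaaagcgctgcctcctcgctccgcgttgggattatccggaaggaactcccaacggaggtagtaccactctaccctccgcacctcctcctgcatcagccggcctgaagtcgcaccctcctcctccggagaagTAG
LINC00094: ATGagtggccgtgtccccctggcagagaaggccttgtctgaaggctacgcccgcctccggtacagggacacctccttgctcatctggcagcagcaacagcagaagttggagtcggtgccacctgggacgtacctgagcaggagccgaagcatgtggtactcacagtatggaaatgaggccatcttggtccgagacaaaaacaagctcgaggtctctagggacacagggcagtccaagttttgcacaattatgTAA

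LINC00657 is NORAD, a cytoplasmic noncoding RNA known to bind the Pumilio proteins, which recognise the motif TGTANATA in RNA written as DNA. Its single-exon transcript of 5401 bases held 15 such matches on the sense strand and 1 on the other strand. The other 96 transcripts searched held 16 sense matches together, at most 4 in any of them, and 11 of all 97 transcripts held at least 1. Next by number was LINC01023, with 4 matches in a shorter transcript of 2616 bases. They start between its bases 1721 and 2349, a wider stretch than its measured locus (chr5:108063526-108063962), which cannot hold them all. A stretch of 240 bases with 3 of the NORAD matches, in capitals, is shown (GRCh37 chr20:34637425-34637664, minus strand). Such stretches were sought in this transcript only.
LINC00657: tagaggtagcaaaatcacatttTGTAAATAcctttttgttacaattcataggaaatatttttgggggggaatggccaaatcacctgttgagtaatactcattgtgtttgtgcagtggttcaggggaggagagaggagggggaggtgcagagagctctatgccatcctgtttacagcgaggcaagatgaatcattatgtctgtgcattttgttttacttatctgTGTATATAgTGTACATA

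The LINC genes were a sparsely expressed class. Of the 861 names, 592 (68.8%) were listed at 0 in both libraries, 167 lay between 0 and the threshold, and 11.8% reached it, against 45.1% of all names and 19.0% of the 959 antisense transcripts named GENE-AS and a number. The 102 genes summed to 585.1 FPKM in EV cells and 558.6 FPKM in PRSS35 cells, which was 0.0683% and 0.0672% of the FPKM of all named loci. Their median level was 1.68 FPKM in EV and 1.92 FPKM in PRSS35 cells. A mean of at least 50 FPKM was reached by 2 of them, at least 10 by 14, at least 5 by 28 and at least 1 by 75. The 2 highest held 27.1% of the summed level in EV and 27.2% in PRSS35 cells, so most of the class was low in both libraries.

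The threshold of 0.5 FPKM fell within a gradual decline. Just inside it, LINC01232 averaged 0.517 FPKM, LINC01560 0.519 FPKM and LINC01006 0.529 FPKM. Just outside, LINC00960 averaged 0.487 FPKM, LINC01012 0.485 FPKM and LINC00667 0.467 FPKM. The genes lay on every chromosome from 1 to 22 and X except chromosome 4, with 13 on chromosome 1 and 8 each on chromosomes 7 and 12. Chromosome 13, which holds 115 LINC names, contributed 3.

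The most abundant member, LINC00493 (SMIM26), was at 89.4 FPKM (81.4 to 97.3) in EV cells and 89.0 FPKM (80.8 to 97.2) in PRSS35 cells, -0.01 on the log2 scale. LINC00152, also called CYTOR and known to be raised in several carcinomas, was at 69.1 FPKM (62.3 to 75.9) and 63.0 FPKM (56.5 to 69.5). Both were equal in the libraries within their intervals. The LINC00152 value is uncertain, since 54.0% of the 50-base stretches in its GENCODE transcripts also occur in MIR4435-2HG, a copy elsewhere on chromosome 2 that was itself at 92.9 and 77.0 FPKM.

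The next members were between 11.6 and 24.5 FPKM on average. LINC01604, also called MINCR, was at 27.98 FPKM (22.5 to 33.4) in EV and 21.0 FPKM (16.3 to 25.7) in PRSS35 cells. LINC01278 was at 17.7 FPKM (15.9 to 19.5) and 14.7 FPKM (12.9 to 16.5). LINC01419, a transcript of chromosome 8 described in liver cancer, was at 14.2 FPKM (13.0 to 15.4) and 11.9 FPKM (10.8 to 13.0). The values of LINC00339 were 12.2 FPKM (10.7 to 13.6) and 11.1 FPKM (9.73 to 12.5). All 4 were lower in PRSS35 cells with overlapping intervals. In LINC00963 the order was the opposite, at 18.8 FPKM (17.9 to 19.8) in EV and 26.4 FPKM (25.2 to 27.5) in PRSS35 cells with intervals apart. LINC01138, a transcript described in liver cancer, was at 22.5 FPKM (20.7 to 24.3) and 15.5 FPKM (14.3 to 16.7), also apart. Among the 12 highest members the intervals were apart in 5, the other 3 being LINC01551, LINC01224 and LINC01273. Over all names at the threshold, intervals were apart in 23.2% that were higher and 13.6% that were lower in PRSS35 cells, so 5 of 12 does not set these members apart.

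**Figure D1:**
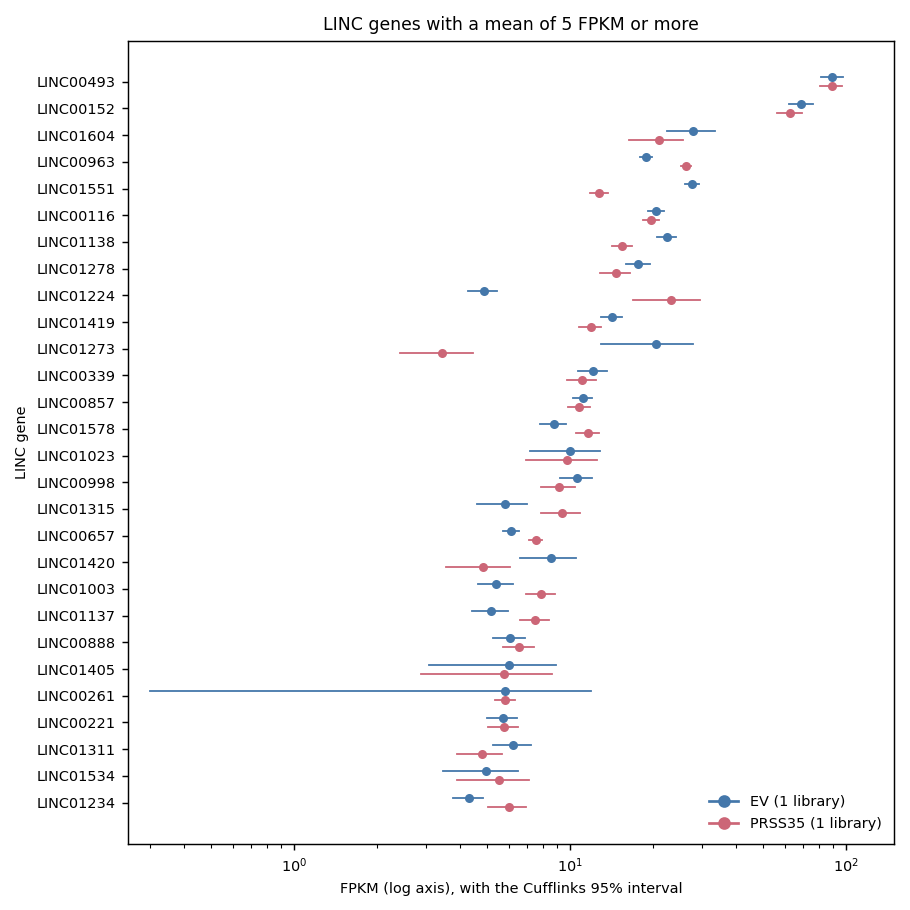
The 28 LINC genes with a mean of 5 FPKM or more, with the FPKM of the EV library and of the PRSS35 library on a log axis; lines are the Cufflinks 95% intervals, and a lower bound under the axis is drawn to its edge. LINC00493 and LINC00152 stand above the rest in both libraries, and the largest gaps between libraries are those of LINC01224, LINC01273 and LINC01551.

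Across the 102 genes a larger share differed by 2-fold than among all names, and the same share as among antisense transcripts when zeros were counted. Some genes past 2-fold reached the mean with one library below it, as counted below. For each gene the log2 of the ratio between PRSS35 and EV was taken after 0.1 FPKM had been added to both, which understates changes of low genes, and 2-fold was the call. Of the 102, 13 were higher by 2-fold in PRSS35 cells (12.7%, against 2.97% of all names) and 10 were lower (9.8%, against 2.69%), or 22.5% in either direction against 5.66%. Among these are 5 genes that one table lists at 0. With those left out of the calls, 12 were higher (11.8%, against 2.13%) and 6 were lower (5.88%, against 1.78%), or 17.6% in either direction against 3.91%. Cufflinks intervals were also apart in 7 of the higher (6.86%, against 1.8%) and 4 of the lower (3.92%, against 1.54%). Antisense transcripts at the same threshold, which are also low, passed 2-fold in 22.5% of 182 cases with zeros counted and in 10.4% without.

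The split of calls depends on the scaling. Dividing each FPKM by the sum over all loci of its library gave 39 higher and 6 lower LINC genes, and it raised the median log2 change of all names by 0.69. That sum was 2469030 FPKM in EV and 1508529 FPKM in PRSS35 cells, of which named loci held 856880 and 831520 FPKM. Directions in the text are those of the deposited FPKM.

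The share of calls did not follow the level in a simple way. Between 0.5 and 2 FPKM, 11 of 53 LINC genes were past 2-fold and above 0 in both (20.8%), against 7.29% of all names and 12.8% of antisense names in that range. It was 4 of 21 (19.0%, against 4.89% of all names) from 2 to 5 FPKM and 0 of 14 (against 2.9%) from 5 to 10 FPKM. From 10 FPKM up, 3 of 14 were past it (21.4%, against 2.08% of all names), namely LINC01551, LINC01224 and LINC01273. A total of 19 of the 102 members reached the mean of 0.5 FPKM with one library below it, against 497 of the 11281 names of any kind. Past 2-fold were 13 of these 19 members (68.4%), against 63.0% of the 497 names. The 13 are among the 23 LINC genes called with zeros counted. The rule favours such differences, and it did so for a larger share of the LINC genes than of all names.

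The changes were spread more widely than over all names. The median log2 change of the 97 was 0.12, with quartiles of -0.25 and 0.56, against a median of 0.07 and quartiles of -0.12 and 0.255 over all names; 56 were higher and 41 lower in PRSS35 cells. In 60 of the 97 (61.9%) the change was under 1.5-fold, against 89.1% of all names above 0 in both. Over these 97 genes the log2 FPKM of both libraries had a Pearson r of 0.887, across genes that share the same pair of libraries. Intervals were apart in 21 higher (20.6%, against 23.2% of all names) and 11 lower members (10.8%, against 13.6%), zeros included, both shares lying under those of all names.

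**Figure D2:**
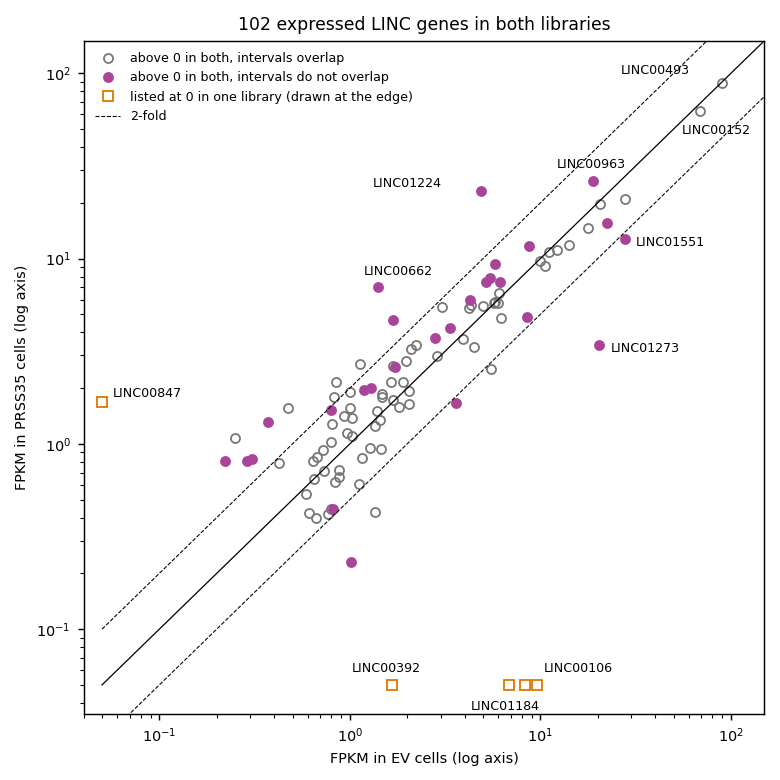
FPKM of the 102 LINC genes in PRSS35 cells against EV cells, both on log axes; dashed lines mark 2-fold and squares are the 5 genes listed at 0 in one library, drawn at the edge of the plot. Most points lie between the dashed lines, the 97 genes above 0 in both having a median log2 change of 0.12.

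LINC01551 was the highest member past 2-fold and kept its annotation in both libraries. Its FPKM was 27.7 (26.1 to 29.3) in EV cells and 12.8 (11.9 to 13.7) in PRSS35 cells, 2.17-fold lower and -1.11 on the log2 scale. Under scaling by the sum its log2 change was -0.40, under 2-fold. The locus (hg19 chr14:29241910-29264000) is one of 40 among the 97 genes with the annotated identifier in both. The fragments implied by its intervals were 1196.4 in EV and 756.2 in PRSS35 cells, 1.58-fold lower and so under 2-fold. Its FPKM per implied fragment, at 0.73 times the EV value, was the lowest of the 40.

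Among genes above 0 in both libraries, 1 other with an annotated locus in both was past 2-fold. LINC00115, which the rule for named genes did not select and which was chosen after its values were seen, was at 0.306 FPKM (0.108 to 0.503) in EV and 0.825 FPKM (0.507 to 1.14) in PRSS35 cells, or 1.19 on the log2 scale. It lies 69 bases from LINC01128, a member at 1.80 and 1.57 FPKM. Together with LINC01551 this made 2 of 40 (5.0%), against 1.66% of the 2767 names of any kind with an annotated locus in both libraries and values above 0.

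Cufflinks gave the remaining genes an assembled locus, whose extent it set from the reads, in at least one library. Of 37 genes assembled in both, 9 were past 2-fold (7 higher, 2 lower; 24.3%, against 4.17% of the 5928 such names of any kind). Of 12 assembled only in the PRSS35 library, 3 were past it and all were higher there. Of 8 assembled only in the EV library, 4 were past it, 1 higher and 3 lower, and their median log2 change was -0.77. So in 6 of the 7 members past 2-fold that were assembled in 1 library, the level was higher in the library that assembled them. Over all names the same split read 64 lower and 3 higher of 1149 assembled in EV only, and 80 higher and 1 lower of 1239 assembled in PRSS35 only. The part of the assembly in these values was not tested.

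**Figure D3:**
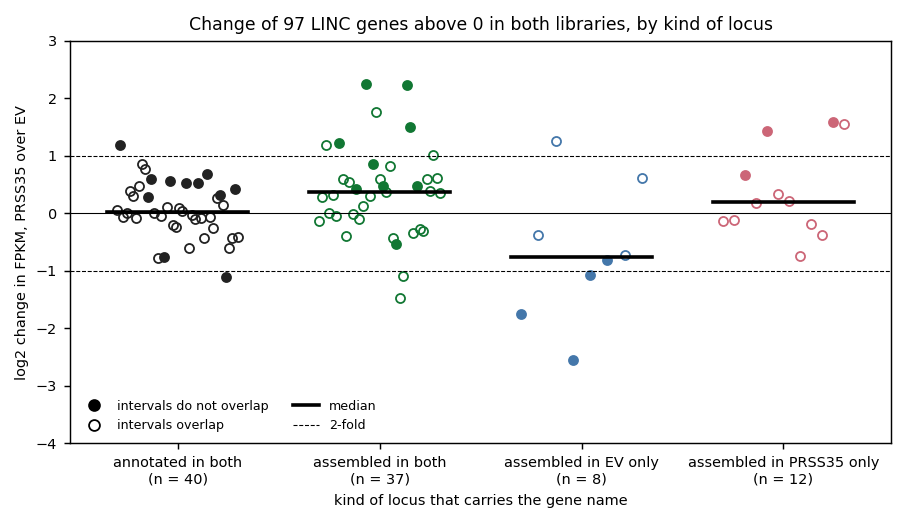
Log2 change in FPKM (PRSS35 over EV) of the 97 LINC genes above 0 in both libraries, split by whether the locus kept its annotation or was assembled from the reads in each library; filled points have intervals apart, bars are medians and dashed lines mark 2-fold. Of the 40 genes annotated in both, 2 lie past the dashed lines, against 9 of the 37 assembled in both.

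The largest increases were in genes with an assembled locus. LINC01224 was at 4.87 FPKM (4.29 to 5.45) in EV and 23.2 FPKM (16.9 to 29.5) in PRSS35 cells, 4.77-fold higher. LINC00662, a transcript described in liver cancer, was at 1.40 FPKM (1.07 to 1.73) and 6.996 FPKM (5.76 to 8.23), 4.99-fold higher. LINC00839 was at 1.68 FPKM (1.35 to 2.0) and 4.66 FPKM (3.53 to 5.801). Intervals were apart in all 3, and the extent of the locus differed most in LINC00662. It spanned chr19:28281401-28284848 in EV and chr19:28223674-28284848 in PRSS35 cells. The other 2 differed little, with LINC01224 listed from chr19:23581713 and chr19:23582036 and LINC00839 from chr10:42970939 and chr10:42970938.

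At lower levels LINC01232 was at 0.222 FPKM (0.113 to 0.330) in EV and 0.812 FPKM (0.520 to 1.104) in PRSS35 cells. LINC01336, whose present RefSeq symbol is that of the glycosyltransferase gene GCNT4, was at 0.370 FPKM (0 to 0.798) and 1.304 FPKM (0.930 to 1.68). In LINC00324 the values were 0.289 FPKM (0.143 to 0.434) and 0.812 FPKM (0.442 to 1.18). Intervals were apart in these 3 genes, each under 1.5 FPKM in both libraries. LINC00853 was at 0.248 and 1.08 FPKM, LINC01573 at 0.472 and 1.57 FPKM and LINC01063 at 0.842 and 2.14 FPKM, all with overlapping intervals.

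The largest decrease was that of LINC01273, at 20.4 FPKM (13.0 to 27.9) in EV and 3.43 FPKM (2.42 to 4.44) in PRSS35 cells, 5.96-fold lower. It lies 14159 bases from CEBPB, a transcription factor of liver cells, which was at 93.8 and 108.0 FPKM. LINC01356 was at 3.63 FPKM (2.83 to 4.42) and 1.66 FPKM (1.29 to 2.04). The level of LINC00491 was 1.02 FPKM (0.496 to 1.54) in EV and 0.231 FPKM (0.0468 to 0.416) in PRSS35 cells. Intervals were apart in these 3 genes, which were assembled in the EV library only. LINC01143, at 1.36 FPKM (0.600 to 2.12) and 0.428 FPKM (0 to 0.904), had overlapping intervals. So did LINC01186, at 5.50 FPKM (0 to 30.9) and 2.53 FPKM (0 to 13.7), whose intervals reach 0 in both libraries. The other members of the 8 largest decreases were LINC01420 and LINC00824, which was at 1.11 and 0.606 FPKM, both under 2-fold.

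The width of an interval implies a number of fragments, if it is read as counting error alone. Since the interval also holds assignment error, a wide one implies few fragments whatever the true count, as in LINC00261 (3.6 in EV and 615.5 in PRSS35 cells) and LINC01000 (297.3 and 0.4), each at about the same FPKM in both. Over the 622 annotated names under 200 fragments whose implied number was within 0.01 of a whole number in both libraries, the FPKM worth of 1 implied fragment had a median ratio of 1.00 between the libraries, so both were equally deep by this measure. In 38 of the 40 genes annotated in both libraries it was within 10% of equal, against 17 of the 57 others and 2 of the 18 past 2-fold. Of the 11 genes past 2-fold with intervals apart, the implied fragments moved the same way as the FPKM in 8 and the other way in 3. For LINC01224 they were 280.1 in EV and 54.0 in PRSS35 cells, while its FPKM was higher in PRSS35 cells. For LINC01273 they were 30.0 and 45.8, and for LINC00839 107.0 and 67.2, each against the direction of the FPKM. In LINC00662 they were 71.2 and 127.9, in the direction of the FPKM but by less. These numbers cannot be read as fragment counts where the interval is wide, as for LINC01224 in PRSS35 cells.

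**Figure D4:**
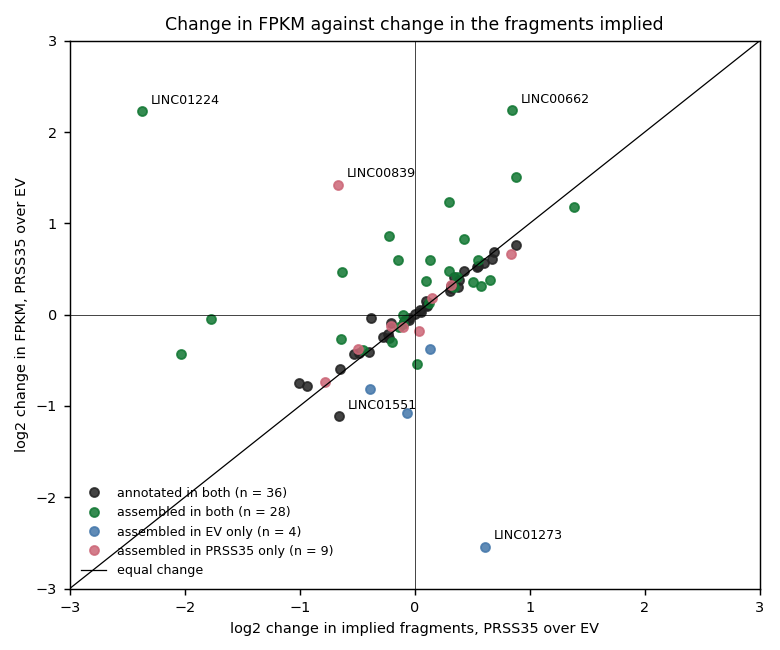
Log2 change in FPKM against log2 change in the fragments implied by the intervals, for the 77 LINC genes with at least 10 implied fragments in each library; the line marks equal change and colours give the kind of locus. Genes annotated in both libraries lie close to the line, while LINC01224, LINC00839 and LINC01273 lie in the quadrants where the quantities moved in opposite directions.

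A group of 5 genes was listed at 0 in one library, which can be a failed estimate, and no fold is given for them. LINC00106, in the region that the X and Y chromosomes share, was at 9.61 FPKM (4.47 to 14.7) in EV and listed at 0 in PRSS35 cells. Its value and bounds are sums over 2 loci. LINC01184, now SLC12A2-DT, was at 8.26 FPKM (7.20 to 9.32) in EV and listed at 0. LINC01057, now SLC44A3-AS1, was at 6.84 FPKM (5.84 to 7.84) and listed at 0. The coding genes that these last members start beside were above 0 in both, SLC12A2 (an ion cotransporter) at 8.38 and 8.78 FPKM and SLC44A3 (a choline transporter-like protein) at 20.8 and 29.1 FPKM. LINC00392 was at 1.66 FPKM (0.175 to 3.14) in EV and listed at 0 in PRSS35 cells. In the other direction LINC00847 was listed at 0 in EV and at 1.68 FPKM (1.29 to 2.06) in PRSS35 cells. Its locus overlaps that of HEIH, a noncoding RNA described in liver cancer, at 16.6 and 15.5 FPKM, and reads of overlapping loci cannot be told apart without strand, which the kit is not stated to keep. Of the 102 members, 4 (3.92%) were at 0 in PRSS35 cells against 0.913% of all names and 1 (0.98%) was at 0 in EV cells against 0.842%.

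Members with small coding sequences differed little between the libraries, with 1 exception. Of 7 such loci listed, 5 were members and none was past 2-fold; 1 was higher, 4 were lower, and the median log2 change was -0.06 against 0.07 over all names; under scaling by the sum, LINC01420 alone stayed lower. LINC00116 (mitoregulin) was at 20.6 FPKM (19.2 to 22.0) in EV and 19.7 FPKM (18.3 to 21.1) in PRSS35 cells. LINC00998 (SMIM30) was at 10.6 FPKM (9.19 to 11.99) and 9.14 FPKM (7.84 to 10.5). LINC00094 (BRD3OS) was at 2.86 FPKM (2.57 to 3.14) and 2.97 FPKM (2.68 to 3.27), while BRD3, which overlaps it, was at 4.29 and 4.99 FPKM. The exception was LINC01420 (NBDY), at 8.56 FPKM (6.61 to 10.5) and 4.82 FPKM (3.56 to 6.08), 1.78-fold lower with intervals apart, with a locus assembled in the EV library only. Together with LINC00493 these transcripts were among the better expressed members, with a median mean level of 9.87 FPKM against 1.90 FPKM over all 102.

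The liver and liver cancer list was split. Of its 21 names, 8 were members; 3 were higher and 5 lower in PRSS35 cells, the median log2 change was -0.11, and the only ones past 2-fold were LINC00662 and LINC00324, both higher; under scaling by the sum all 8 were higher. LINC00261, which lies 2362 bases from FOXA2, a transcription factor of endoderm and liver, was at 5.81 FPKM (0 to 11.9) in EV and 5.84 FPKM (5.37 to 6.31) in PRSS35 cells, with FOXA2 at 54.9 and 63.3 FPKM. LINC00467 was at 2.05 FPKM (1.31 to 2.78) and 1.92 FPKM (1.21 to 2.64). LINC01134 was at 1.16 FPKM (0.863 to 1.46) and 0.834 FPKM (0.404 to 1.26). None of these 3 had intervals apart. Among the other 13 names, LINC01018 was at 0.263 and 0.160 FPKM, LINC01554 was at 0 and 0.0194 FPKM, and LINC01093 and LINC01146 were at 0 in both. LINC00511, LINC00665, LINC00176 and LINC01485 were below the threshold, LINC00844 and LINC00462 were at 0 in both, and LINC00263, LINC01348 and LINC00205 were not matched by name.

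The 6 members of the list of cancer-related and other well-studied transcripts, 6 of 15 names, were all higher in PRSS35 cells or listed there alone. The list was chosen with earlier results of these data known, and LINC00847 reached the mean through the PRSS35 library alone, so the shared direction is a description. Of the 5 above 0 in both, 5 were higher with intervals apart (against 23.2% of all names), none was past 2-fold, and the median log2 change was 0.53, against 0.07 over all names. LINC00657 (NORAD) was at 6.12 FPKM (5.72 to 6.51) in EV and 7.51 FPKM (7.08 to 7.95) in PRSS35 cells, 1.23-fold higher. LINC01003 was at 5.41 FPKM (4.63 to 6.196) and 7.85 FPKM (6.91 to 8.80). Values of LINC00673, which is known to bind the phosphatase PTPN11, were 1.28 FPKM (0.993 to 1.57) and 2.004 FPKM (1.64 to 2.36). LINC00473, a transcript induced by cyclic AMP signalling, was at 1.19 FPKM (0.860 to 1.52) and 1.95 FPKM (1.54 to 2.35). LINC00963 was the fifth, and LINC00847 the one listed at 0 in EV. Among names of the list under the threshold, LINC00941 (0.373 and 0.353 FPKM), LINC00312, LINC00472 and LINC00920 were lower in PRSS35 cells, and LINC00641 and LINC00667 were higher. The other 9 names as a whole were under 0.5 FPKM on average or, for LINC00338, not matched by name; LINC00478 was read under its later name MIR99AHG and was at 0 in both.

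In all, 16 genes had intervals apart with a change under 2-fold, 13 higher and 3 lower in PRSS35 cells. Of these, 9 had annotated loci in both libraries and 8 of the 9 were higher. Over all names above 0 in both, 3952 (35.7%) had intervals apart, and 203 higher and 174 lower of these were past 2-fold. Among the 97 LINC genes above 0 in both, intervals were apart in 27 (27.8%), a smaller share. For changes of any size the background also leaned to higher values in PRSS35 cells. Among annotated names 20.8% were higher with intervals apart and 6.07% lower, with zeros left out, against 22.5% and 5.0% of the 40 LINC genes. One of them, LINC01578, now CHASERR, was picked out for its known action on the gene beside it, CHD2, after its values were seen. It was at 8.73 FPKM in EV and 11.7 FPKM in PRSS35 cells, with CHD2 at 1.69 and 1.78 FPKM. The other members were at 0.398 to 11.1 FPKM and are counted in the groups above.

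Position relative to coding genes was varied. Of the 102 genes, 12 overlapped a coding gene, 45 lay within 10000 bases of one (overlaps included) and 16 were more than 100000 bases away. In 13 the start of the LINC locus lay within 2000 bases of a coding start on the opposite strand. That start was the edge of the locus in the EV library, which the reads set where it was assembled, with the strand from GENCODE. Among 65 pairs with both above 0 and the coding gene at 0.5 FPKM or more, the LINC gene was the lower one in 49, the sign of the change was the same in 31, and the log2 changes had a Pearson r of -0.043, across pairs from the same pair of libraries. In the 8 such pairs with opposite starts the sign was the same in 5 and r was 0.062.

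The nearest other named loci of the members described were as follows. SEC23B, a part of the vesicle coat COPII, lay 6014 bases from LINC00493 and was at 33.8 and 38.8 FPKM. NTMT1 lay 95198 bases from LINC00963 at 153.2 and 116.5 FPKM, the reverse of its order. LINC01224 lay 3351 bases from ZNF91, a zinc finger gene at 0.244 and 0.386 FPKM. ASMTL-AS1, at 0 in both, lay 1133 bases from LINC00106. LINC01232 lay 1947 bases from TM9SF2 at 20.5 and 21.9 FPKM, and LINC00324 778 bases from CTC1, a telomere protein gene, at 10.8 and 10.2 FPKM. These expressed neighbours differed by less than 1.5-fold, apart from ZNF91, which was below 0.5 FPKM.

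SLC16A1, a lactate transporter gene 61150 bases from LINC01356, was at 8.78 and 9.05 FPKM. VAX2 lay 10606 bases from LINC01143 at 4.497 and 5.197 FPKM, and C1orf174 lay 111 bases from LINC01134 at 7.21 and 9.54 FPKM. KRBOX4 lay 119515 bases from LINC01186 at 1.47 and 2.02 FPKM. In each of these pairs the LINC gene was lower and the coding gene higher in PRSS35 cells. PDZK1IP1 lay 3250 bases from LINC00853 at 0.0515 and 0.516 FPKM, and CCNYL2 3251 bases from LINC00839 at 0.136 and 0.262 FPKM, and these neighbours were higher in PRSS35 cells like the LINC genes.

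The remaining neighbours were mostly noncoding or listed at 0. LINC00673 lay 5237 bases from LINC00511, at 0.0639 and 0.0319 FPKM. The locus of LINC00473 overlapped that of LINC00602, another member at 1.36 and 1.25 FPKM. LINC00662 overlapped LOC101927151, at 3.95 and 3.29 FPKM. LINC01138 lay 415 bases from LOC100132057, at 0.0263 and 0.197 FPKM. The nearest locus was at 0 in both libraries for LINC00152 (MIR4435-1,MIR4435-2), LINC01273 (CEBPB-AS1), LINC00339 (LOC101928043), LINC01420 (UQCRBP1), LINC00998 (GPR85), LINC01003 (FABP5P3), LINC01573 (MIR4674), LINC01057 (MIR378G), LINC00491 (LINC00492), LINC00824 (MIR1208) and LINC01419 (RALYL). GLI4, 3224 bases from LINC01604, was not matched between the tables. The nearest locus of LINC00657 was CNBD2, at 0.0977 and 0 FPKM, and that of LINC00392 was KLF12, at 0.0419 and 0.0119 FPKM. TRAF5, beside LINC00467, was at 0.384 and 0.528 FPKM, while NRROS beside LINC01063 and ANKRD31 beside LINC01336 were at 0 in EV and at 0.0279 and 0.0165 FPKM in PRSS35 cells.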

How the data were processed

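RNA of PLC cells with EV or PRSS35 was sequenced by the authors, 1 library per condition, from libraries made with a NEBNext Ultra kit and run on a HiSeq2500. The submitters' processing notes and the study's methods name TopHat2 2.1.0, Cuffdiff and Cufflinks 2.2.1 and hg19. The notes also list dm6, whose role is not given in the sources used here. The deposited values are FPKM per locus, scaled by the authors' Cufflinks run, with lower and upper bounds; the annotation release is not given in the sources used here, and no counts were used.

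FPKM and its lower and upper bounds were summed per name over loci off alternate contigs. The LINC genes, the lists and the rule for named genes were chosen with earlier results of these data known. Named were the 12 members of highest mean, the 8 largest changes in each direction among members above 0 in both libraries, those listed at 0 in one, the members of 3 lists, each one's nearest named locus (a few are not reported here), and the 3 genes on each side of the threshold. LINC00115 and LINC01578 were named after their values were seen. A pseudocount of 0.1 FPKM was added before log2 ratios were formed, and 2-fold was the call. For the fragments implied, the distance from FPKM to its upper bound was taken as 2 standard deviations of a Poisson count. No test of a difference was run. Genome features are from GENCODE v44lift37 on GRCh37, promoters and present symbols from RefSeq. Python 3.11.15, numpy 2.4.6, pandas 2.3.3 and matplotlib 3.10.9 were used. Intervals and depth cover error within a library only. Alternatives are given in the closing section.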

Additional observations from a re-analysis of the deposited data

How the results depend on the processing

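No paired analysis was possible because neither condition has a second library. The count of 102 genes fell to 75 at a mean of 1 FPKM or more and was 101 with the highest locus per name. The 13 higher and 10 lower by 2-fold became 4 and 6 with a pseudocount of 1 FPKM (1.99% and 1.95% of all names), and 7 higher with 0.5 FPKM (2.34%). Without a filter on the mean they were 35 and 26, but of 861 LINC names and no longer of 102 (2.66% and 2.28% of all names). At a mean of 1 FPKM or more 7 of 75 were higher (2.57% of all names). At 1.5-fold they were 25 and 17 of 102 (7.31% and 5.15% of all names). With values above 0 in both libraries 6 were lower (1.78% of all names). With zeros counted, 1 was higher and 2 were lower among annotated loci in both, and 8 were higher with intervals apart. Shares for these rules were taken only with zeros left out. They were 5.0% of LINC genes against 1.66% of all names for annotated loci in either direction. For higher genes with intervals apart they were 6.86% against 1.8%. Scaling by the sum over all loci gave 39 higher and 6 lower (20.2% and 1.61% of all names). Unnamed loci held 65.3% of that sum in EV and 44.9% in PRSS35 cells. The median log2 change, 0.104 with zeros counted, was 0.77 under this scaling, where that of all names was 0.77, and 0.00 without a filter. Under the other alternatives the counts stayed within 1.5 times and the median between 0.01 and 0.15. Of 35 named genes above 0 in both, 11 changed sign under scaling by the sum, all 11 of them lower by deposited FPKM, and 2 under scaling by the upper quartile and under centring; none past 2-fold changed sign. Fewer than 50 fragments were implied in either library for 46 of the 102 genes. That number describes the width of the interval and is not a known count. Modest changes of these genes could not be told from error within a library.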

Other observations

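Some transcripts with LINC in their name were outside the rule because the name has another form or is joined with a neighbour. OLMALINC, a noncoding RNA known from oligodendrocytes, was at 52.2 FPKM (49.2 to 55.3) in EV and 52.1 FPKM (49.1 to 55.2) in PRSS35 cells, a level that only LINC00493 and LINC00152 exceeded among the 102 genes. The joined locus LINC00623,LINC00869 was at 16.0 FPKM (14.5 to 17.4) and 14.1 FPKM (12.7 to 15.4). The pseudogene locus DUXAP10,LINC01296 appeared at 2 places on chromosome 14, at 16.2 and 20.5 FPKM at the first and at 6.89 and 7.05 FPKM at the second. LINC00957 was at 1.13 FPKM in EV cells and was joined in PRSS35 cells with DBNL, an actin-binding protein gene, in a locus at 143.1 FPKM, where it has no value of its own. GAPLINC was at 1.49 FPKM (0.377 to 2.61) and 1.67 FPKM (0.484 to 2.86). LINC-PINT had 1 locus at 0.620 FPKM in EV that was listed at 0 in PRSS35 cells, and LINC-ROR was at 0 in both.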
